A study of Mus musculus with 10 samples.

Results

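The 9 genes described here are the core of the Hedgehog pathway: the ligands Shh and Ihh, the receptor Ptch1, the co-receptor Boc, the signal transducer Smo, the transcription factors Gli1, Gli2 and Gli3, and the ligand-binding inhibitor Hhip. They were taken by name from the 24531 genes that could be named in the deposited tables, and each was followed across all 10 libraries of the series. The libraries were made from prostate cells of C57BL/6 mice aged 8 to 12 weeks, with no genetic change or drug treatment named, sorted by surface antibodies into 4 gates that all exclude lineage-positive cells. Basal cells (2 libraries) were CD24low/CD49fhigh, luminal cells were CD24high/CD49flow and were split into Sca-1- (3 libraries) and Sca-1+ (3 libraries), and stromal cells (2 libraries) were negative for CD24 and CD49f. The stromal gate is thus defined by what its cells lack. The labels of every library also carry a culture protocol with dihydrotestosterone, and do not state if it was applied to the sorted cells. The labels do not say whether the libraries of a gate came from separate animals, so the p-values below measure the spread between these libraries, which may be technical.

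Hedgehog ligands are secreted proteins that usually signal between neighbouring tissues. Ptch1 holds Smo inactive until a ligand binds it, and active Smo lets the Gli factors switch on target genes, among them Gli1, Ptch1 and Hhip themselves, so that these 3 genes are commonly read as reporters of a responding cell. In the developing prostate the epithelium makes the ligand and the surrounding mesenchyme responds.

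The 2 ligands are close relatives, and the stretch of coding sequence below is shown because it has the most identical bases of any in-frame stretch of this length within 1 exon of each gene. It covers 90 bases of exon 2 in each gene, read from GENCODE M21 transcripts (GRCm38, minus strand), and capitals mark the 9 bases that differ; the other 81 (90.0%) are identical. The Shh stretch lies at chr5:28461470-28461559, coding bases 328 to 417, and the Ihh stretch at chr1:74948452-74948541, coding bases 340 to 429.
Shh: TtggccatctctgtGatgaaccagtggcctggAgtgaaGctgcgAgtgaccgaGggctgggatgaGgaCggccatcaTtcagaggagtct
Ihh: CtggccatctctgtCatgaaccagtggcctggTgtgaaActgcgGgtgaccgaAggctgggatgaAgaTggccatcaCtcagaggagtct
The longest run of bases shared by the 2 transcripts was 17 nt, and among the 3 Gli transcripts the longest was 25 nt, between Gli2 and Gli3.

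Levels are given in FPKM (fragments per kilobase and per library size), summed over the transcripts of a gene. The libraries held an estimated 20.2 to 27.3 M fragments (M, mega), and 9837 to 11349 genes reached 1 FPKM. Cell-type markers were read as the summed FPKM of a list. The 6 basal markers, Krt5 and Krt14 among them, summed to 4861 and 6688 in the basal libraries and to at most 478.7 elsewhere. The 6 secretory luminal markers summed to 31895, 51109 and 53011 in the Sca-1- luminal libraries and to at most 9523 elsewhere. Of these, Krt8 and Krt18 did not separate the Sca-1- luminal from the basal and Sca-1+ luminal libraries. Krt8 had 606.5 and 1234 FPKM in basal libraries and 255.6 to 2133 FPKM in Sca-1- luminal libraries, and Krt18 had 1554 and 2004 FPKM against 902.1 to 3818 FPKM. Markers of seminal vesicle, 4 in all, summed to 17744, 1331 and 40189 in the Sca-1- luminal libraries, so that gate was not uniform. They summed to 6753, 3388 and 4080 in the Sca-1+ luminal libraries and to at most 129.9 elsewhere, and their part in the results was not tested. Of 5 leukocyte markers, Ptprc, Laptm5, Tyrobp and Cd3e stayed at or below 3.89 FPKM in every library, with Cd3e at 0 in 7, whereas Cd52 alone had 96.4 to 491.8 FPKM in the 6 luminal libraries and at most 8.77 in the others. The 9 fibroblast markers (Col1a1, Col1a2, Col3a1, Dcn, Lum, Pdgfra, Mfap4, Serpinf1 and Fbln1) summed to 7489 and 5840 in stroma, 692.4 and 509.5 in basal libraries, and 99.6, 77.5 and 139.9 in Sca-1- luminal libraries. In the Sca-1+ luminal gate they summed to 5440, 2801 and 391.4, so libraries 1 and 2 of that gate stood nearer to stroma than library 3 did. Dcn gave most of each sum, with 655.2 and 458.6 FPKM in the basal libraries and 233.4 FPKM in Sca-1+ luminal library 3. Each of the other fibroblast markers was higher in that library than in either basal library. None of the 9 was at 0 in any library. The 5 smooth muscle markers split that gate in the same way, at 186.6, 256.5 and 16.1, beside 110.8 and 213.4 in stroma. The 5 endothelial markers did so too at a low level, summing to 19.4, 15.1 and 2.95, beside 4.83 and 7.18 in stroma. The 4 proximal luminal markers, such as Psca, ran the other way in that gate, at 780.25, 2083 and 4834, against at most 529.8 elsewhere. Calls that involve the Sca-1+ luminal gate are therefore given also with library 3 as its only library, a choice made after these values were seen, in which the lone library is assumed to vary like the other groups. In sorted pools of this kind, fewer cells of a type and less RNA per cell cannot be told apart.

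The 2 ligands were highest in different epithelial gates, and Sca-1+ luminal library 3 held both, with Shh at 3.43 and Ihh at 9.64 FPKM. Sonic hedgehog (Shh, chromosome 5, 28456815 to 28467256, minus strand, here and below in mm10) was measured at 13.9 and 10.5 FPKM in the basal libraries. Sca-1- luminal cells had 0.908, 0.157 and 0.315 FPKM, Sca-1+ luminal cells 0.371, 0.832 and 3.43 FPKM, and stroma 0.033 and 0.108 FPKM. Both basal libraries were above every other library, and the ranges of the luminal gates overlapped. The basal values rest on an estimated 815 and 582 fragments and the stromal values on 2 and 6. The basal mean was 12.2 ± 2.39 FPKM (SD, n = 2), 26.4 times the Sca-1- luminal mean of 0.46 ± 0.396 (SD, n = 3). By limma with Benjamini-Hochberg adjustment, Shh was higher in basal than in stromal cells (log2 change of stromal against basal -3.61, SE 0.49, adjusted p = 0.001586), than in Sca-1- luminal cells (3.19, SE 0.45, adjusted p = 0.0004323) and than in Sca-1+ luminal cells (2.55, SE 0.45, adjusted p = 0.004992). The Sca-1+ comparison missed the threshold without basal library 1 (adjusted p = 0.0512 by limma) and was 1.56 with Sca-1+ luminal library 3 alone (adjusted p = 0.02278 by limma).

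Among the Sca-1+ luminal libraries, Shh was highest in library 3, where the 6 basal markers summed to 56.7 FPKM, and lower in libraries 1 and 2, where they summed to 140.3 and 478.7. The order of Shh was thus not that of the basal markers in these 3 libraries, and the part of basal cells in the Shh values was not tested. With library 3 alone, Shh was higher in the Sca-1+ gate than in the Sca-1- gate (1.63, adjusted p = 0.01524 by limma) and than in stroma (stromal against Sca-1+ luminal -2.05, adjusted p = 0.003155 by limma). With all 3 libraries the change was 0.65 (adjusted p = 0.2268 by limma) and was not called. A non-coding gene on the same locus, 9530036O11Rik, overlaps Shh, and its transcripts reached at most 0.179 FPKM in any library.

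Indian hedgehog (Ihh, chromosome 1, 74945315 to 74951672, minus strand), the ligand best known from growing cartilage and gut epithelium, was measured in the Sca-1+ luminal gate at 2.67, 2.54 and 9.64 FPKM. Sca-1- luminal cells had 0.926, 0.0748 and 0.962 FPKM, basal cells 0.0188 and 0.178 FPKM, and stroma 0.0908 and 0.0395 FPKM. All 3 Sca-1+ luminal libraries were above all others, and library 3, the one with the most proximal luminal and the least fibroblast marker signal of its gate, was the highest. The Sca-1+ values rest on an estimated 164, 106 and 533 fragments, and no basal or stromal library had more than 9. By limma, Ihh was higher in the Sca-1+ gate than in the Sca-1- gate (1.70, SE 0.42, adjusted p = 0.01354), with means of 4.95 ± 4.06 (SD, n = 3) and 0.654 ± 0.502 FPKM (SD, n = 3). It was also higher there than in basal cells (basal against Sca-1+ luminal -2.24, SE 0.47, adjusted p = 0.01026 by limma) and stromal cells (stromal against Sca-1+ luminal -2.28, SE 0.47, adjusted p = 0.01167 by limma). The call against stroma was lost without stromal library 1 (adjusted p = 0.09004 by limma) or 2 (0.07761), and that against basal cells without basal library 1 (0.08283) or 2 (0.0712). With only the 2 gates compared in the fit, both were lost as well (adjusted p = 0.07661 and 0.06347 by limma). With library 3 as the only Sca-1+ library Ihh reached 1 FPKM in a single library and was not tested.

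**Figure D1:**
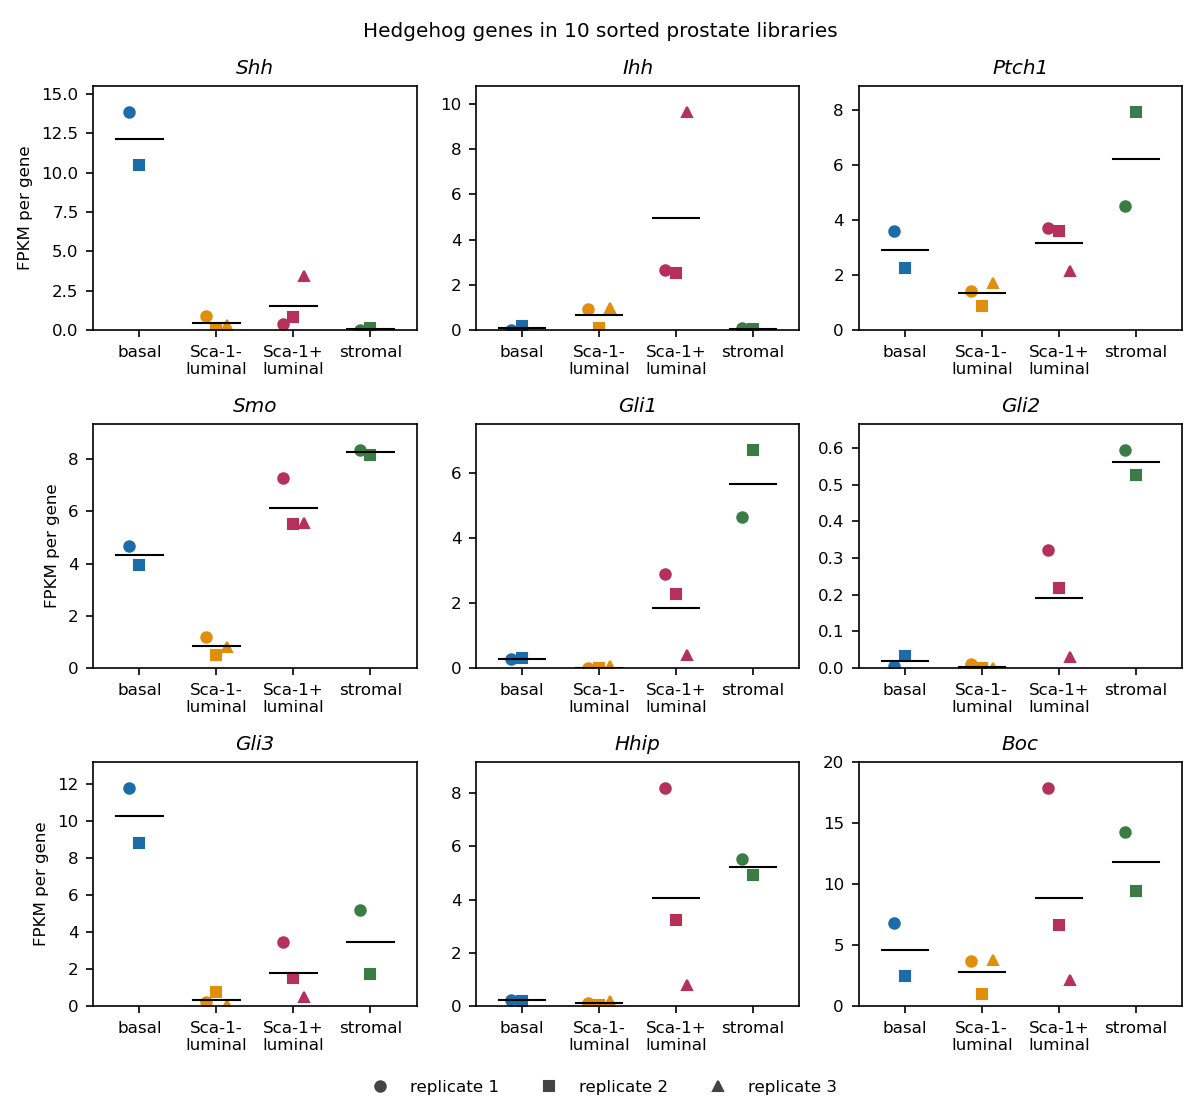
FPKM of each of the 9 Hedgehog genes (vertical axes, linear, each with its own scale) in the 10 libraries, by sorted gate. Each point is 1 library, and the bar is the mean of the gate. Point shape gives the replicate number, which is only the listed order within a gate. Shh is high in both basal libraries at 13.9 and 10.5 FPKM, Ihh in the 3 Sca-1+ luminal libraries at 2.54 to 9.64 FPKM, and Gli1 in the 2 stromal libraries at 4.64 and 6.71 FPKM.

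On the receptor side, Ptch1 and Smo were lowest in the Sca-1- luminal gate, whereas Boc there overlapped the basal and Sca-1+ luminal gates. Patched 1 (Ptch1, chromosome 13, 63508328 to 63573598, minus strand), which is both the ligand receptor and a target of the pathway, was measured at 4.52 and 7.93 FPKM in stroma. Basal cells had 3.59 and 2.24 FPKM, the Sca-1- luminal gate 1.42, 0.885 and 1.72 FPKM, and the Sca-1+ luminal gate 3.72, 3.62 and 2.16 FPKM. Both stromal libraries were above all others and all 3 Sca-1- luminal libraries below all others, while the basal and Sca-1+ luminal ranges overlapped. By limma, Ptch1 was higher in stromal than in Sca-1- luminal cells (1.60, SE 0.32, adjusted p = 0.002639), and the stromal mean of 6.23 ± 2.41 FPKM (SD, n = 2) was 4.64 times the Sca-1- mean of 1.34 ± 0.424 (SD, n = 3). The stromal excess was 0.86 over basal cells (adjusted p = 0.1089 by limma) and 0.78 over Sca-1+ luminal cells (adjusted p = 0.1355 by limma), and neither was called. The excess over Sca-1+ luminal cells was 1.15 with library 3 alone (adjusted p = 0.064 by limma) and passed the threshold with median-of-ratios scaling (1.00, adjusted p = 0.04783 by limma) and with quantile normalization (1.06, adjusted p = 0.02702 by limma). Basal against Sca-1- luminal cells was called for Ptch1 under the same scalings (0.86 and 0.93, adjusted p = 0.03102 and 0.01521 by limma). Ptch1 was called higher in the Sca-1+ gate than in the Sca-1- gate (0.82, adjusted p = 0.04837 by limma). That call was lost in 12 of 20 alternatives, among them the fit with library 3 alone (0.45, adjusted p = 0.4625 by limma).

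Smoothened (Smo, chromosome 6, 29735503 to 29761365, plus strand), the membrane protein that passes the signal on, was measured at 8.34 and 8.17 FPKM in stroma. The Sca-1+ luminal gate had 7.29, 5.53 and 5.54 FPKM, basal cells 4.68 and 3.94 FPKM, and the Sca-1- luminal gate 1.21, 0.501 and 0.802 FPKM. On these summed values the 4 gates did not overlap and stood in that order, from high to low. A shorter Smo transcript added 0.910 FPKM in basal library 2 and 1.07 FPKM in Sca-1+ luminal library 2, and was at 0 elsewhere. On the main transcript alone, Sca-1+ luminal library 2 had 4.46 FPKM, below basal library 1 at 4.68 FPKM, so those gates overlapped. Smo was lower in the Sca-1- luminal gate than in each of the others by limma: stromal against Sca-1- luminal 2.35 (SE 0.25, adjusted p = 0.000108), Sca-1+ against Sca-1- luminal 1.96 (SE 0.22, adjusted p = 0.0005246) and basal against Sca-1- luminal 1.55 (SE 0.25, adjusted p = 0.0009166). Those 3 calls held under every alternative. The summed level in Sca-1+ luminal library 3, which had the lowest fibroblast marker sum of its gate, was close to that of library 2. On the main transcript alone it was 5.54 FPKM, against 4.46 FPKM in library 2. With library 3 alone the excess over Sca-1- luminal cells was 1.85. The steps between stroma and Sca-1+ luminal cells (0.39, adjusted p = 0.317 by limma) and between basal and Sca-1+ luminal cells (-0.42, adjusted p = 0.2551 by limma) were not called.

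Boc (chromosome 16, 44485049 to 44558897, minus strand), a cell-surface co-receptor that helps present ligand to Ptch1, was measured at 14.3 and 9.40 FPKM in stroma. The Sca-1+ luminal gate had 17.9, 6.61 and 2.12 FPKM, basal cells 6.80 and 2.47 FPKM, and the Sca-1- luminal gate 3.68, 1.01 and 3.75 FPKM. The highest value and 1 of the lowest came from the same Sca-1+ luminal gate, in the order of its fibroblast and endothelial markers. Every neighbouring pair of gates overlapped, and none of the 6 comparisons was called. The largest was stromal against Sca-1- luminal cells at 1.83 (SE 0.70, adjusted p = 0.05072 by limma), which passed the threshold in 6 of 21 alternatives, among them median-of-ratios scaling (adjusted p = 0.03755 by limma) and quantile normalization (0.04204). With Sca-1+ luminal library 3 alone Boc was called higher in stroma than in that gate (2.01, adjusted p = 0.04463 by limma).

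**Figure D2:**
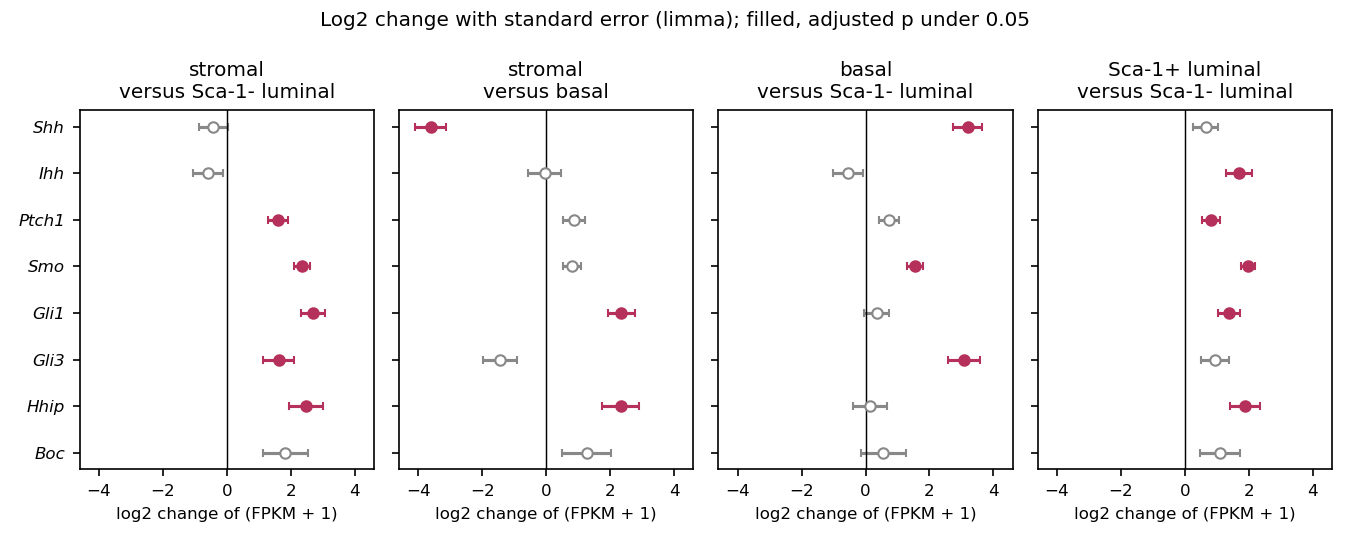
Difference between gates in log2(FPKM + 1) for the 8 tested Hedgehog genes (horizontal axis; bars are the limma standard error) in 4 of the 6 comparisons; filled points passed an adjusted p of 0.05. Shh lies at -3.61 in stromal against basal cells and at 3.19 in basal against Sca-1- luminal cells, while Gli1 and Hhip lie at 2.35 and 2.34 in stromal against basal cells.

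The Gli factors split between gates. Gli1 (chromosome 10, 127329882 to 127341974, minus strand), an activator that is itself a target, was measured at 4.64 and 6.71 FPKM in stroma, from an estimated 395 and 527 fragments. The Sca-1+ luminal gate had 2.90, 2.27 and 0.409 FPKM and basal cells 0.279 and 0.308 FPKM. In Sca-1- luminal cells it was listed at 0 in libraries 1 and 2 and at 0.0501 FPKM, or 4 fragments, in library 3. The deposited upper bounds of both zeros were 0 as well, so these can be estimates that were not made. With those zeros taken as listed, no 2 gates overlapped. By limma, Gli1 was higher in stromal than in basal cells (2.35, SE 0.42, adjusted p = 0.00454), where the means were 5.68 ± 1.46 and 0.293 ± 0.0201 FPKM (SD, n = 2 each), a ratio of 19.4. It was also higher in stromal than in Sca-1- luminal cells (2.70, SE 0.39, adjusted p = 0.0004895 by limma). Both calls held under every alternative, but none of these left out both zeros of the Sca-1- luminal gate.

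The Gli1 difference between stroma and the Sca-1+ luminal gate was 1.33 (SE 0.39, adjusted p = 0.04889 by limma), just inside the threshold, and was lost in 15 of 21 alternatives. With Sca-1+ luminal library 3 alone it was 2.23 (adjusted p = 0.0005117 by limma). Against Sca-1- luminal cells the Sca-1+ gate was higher by 1.37 (SE 0.34, adjusted p = 0.01509 by limma) with all 3 libraries and by 0.47 (adjusted p = 0.2363 by limma) with library 3 alone. It was also lost without Sca-1+ luminal library 2 (1.21, adjusted p = 0.05719 by limma). The excess over Sca-1- luminal cells takes the zeros listed there as they stand. Gli1 within the Sca-1+ luminal gate followed the fibroblast markers, at 2.90 FPKM beside a sum of 5440, 2.27 beside 2801 and 0.409 beside 391.4. The endothelial markers fell in the same order, and the part of either list in the result was not tested. Gli1 overlaps 62 nt of Arhgap9, whose overlapping transcripts reached at most 0.339 FPKM.

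Gli2 (chromosome 1, 118834132 to 119053619, minus strand), the main activator at the start of a response, was the scarcest member. It was measured at 0.594 and 0.527 FPKM in stroma, against 0.321, 0.219 and 0.031 FPKM in the Sca-1+ luminal gate and 0.0064 and 0.0341 FPKM in basal cells. In Sca-1- luminal cells it stood at 0.0123 FPKM in library 1 and was listed at 0, with upper bounds of 0 as for Gli1, in libraries 2 and 3. Both stromal libraries were above all others. Gli2 never reached 1 FPKM and was the only member that did not enter the main test. Without the filter on low values its differences were called by limma for stroma against basal (0.61, adjusted p = 0.008143), Sca-1- luminal (0.64, adjusted p = 0.001611) and Sca-1+ luminal cells (0.40, adjusted p = 0.03601); with a pseudocount of 1 such changes are strongly compressed.

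Gli3 (chromosome 13, 15463235 to 15730026, plus strand), which without a signal is cut into a repressor, was highest in the gate that was highest in Shh. It was measured at 11.8 and 8.81 FPKM in basal cells and at 5.17 and 1.72 FPKM in stroma. The Sca-1+ luminal gate had 3.45, 1.50 and 0.490 FPKM and the Sca-1- luminal gate 0.219, 0.758 and 0.0796 FPKM. Both basal libraries were above all others, and on the summed values the other gates overlapped their neighbours in the order of the means. A shorter Gli3 transcript had 2.59 FPKM in stromal library 1 and was listed at 0 in stromal library 2. On the longest transcript alone stroma had 2.58 and 1.72 FPKM, above the Sca-1+ luminal gate at no more than 1.68 FPKM. In basal cells Gli3 averaged 10.3 ± 2.08 FPKM (SD, n = 2), beside 0.293 FPKM for Gli1, a comparison per transcript length within the same libraries. By limma, Gli3 was higher in basal than in Sca-1- luminal cells (3.08, SE 0.49, adjusted p = 0.0008323), where the ratio of means was 29.2, and than in Sca-1+ luminal cells (2.13, SE 0.49, adjusted p = 0.01501). It was higher in stromal than in Sca-1- luminal cells (1.63, SE 0.49, adjusted p = 0.018 by limma), a call lost without stromal library 1 (adjusted p = 0.184 by limma) or Sca-1- luminal library 3 (0.05537). The call of basal over Sca-1+ luminal cells was lost without basal library 1 (adjusted p = 0.1106 by limma) or 2 (0.07798). With only the 2 gates compared in the fit it was lost as well (adjusted p = 0.05914 by limma). The change was 2.91 with Sca-1+ luminal library 3 alone. Stromal against basal cells gave -1.45 (adjusted p = 0.08028 by limma) and was called in the fit with that library alone (adjusted p = 0.03025 by limma).

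Hhip (chromosome 8, 79965851 to 80058006, minus strand), a membrane protein that binds and removes ligand and is induced by the pathway as a brake, was measured at 5.51 and 4.91 FPKM in stroma. The Sca-1+ luminal gate had 8.17, 3.25 and 0.780 FPKM, basal cells 0.246 and 0.210 FPKM, and the Sca-1- luminal gate 0.117, 0.0569 and 0.176 FPKM. Stroma overlapped the Sca-1+ luminal gate, and both were above the basal and Sca-1- luminal gates. The highest library of all was Sca-1+ luminal library 1, with an estimated 1984 fragments, and the lowest of that gate was library 3, with 171. By limma, Hhip was higher in stromal than in basal cells (2.34, SE 0.58, adjusted p = 0.01784), where means of 5.21 ± 0.422 and 0.228 ± 0.0254 FPKM (SD, n = 2 each) gave a ratio of 22.9. That call was lost without any single library of either gate, at adjusted p-values by limma of 0.0837 and 0.09171 (without basal library 1 or 2) and 0.08873 and 0.08036 (without stromal library 1 or 2).

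Hhip was also higher in stromal than in Sca-1- luminal cells (2.48, SE 0.53, adjusted p = 0.003713 by limma), under every alternative. In the Sca-1+ gate it exceeded Sca-1- luminal cells by 1.88 (SE 0.47, adjusted p = 0.01484 by limma), or by 0.67 with library 3 alone (adjusted p = 0.07709 by limma). It exceeded basal cells there as well (basal against Sca-1+ luminal -1.74, adjusted p = 0.04511 by limma), but this was lost in 14 of 20 alternatives and was -0.54 with library 3 alone (adjusted p = 0.1718 by limma). In stromal against Sca-1+ luminal cells Hhip was called with library 3 alone (1.801, adjusted p = 0.000812 by limma) and not with all 3 libraries. As for Gli1, the order within the Sca-1+ gate was that of the fibroblast and of the endothelial markers. The part of either list in these results was not tested.

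**Figure D3:**
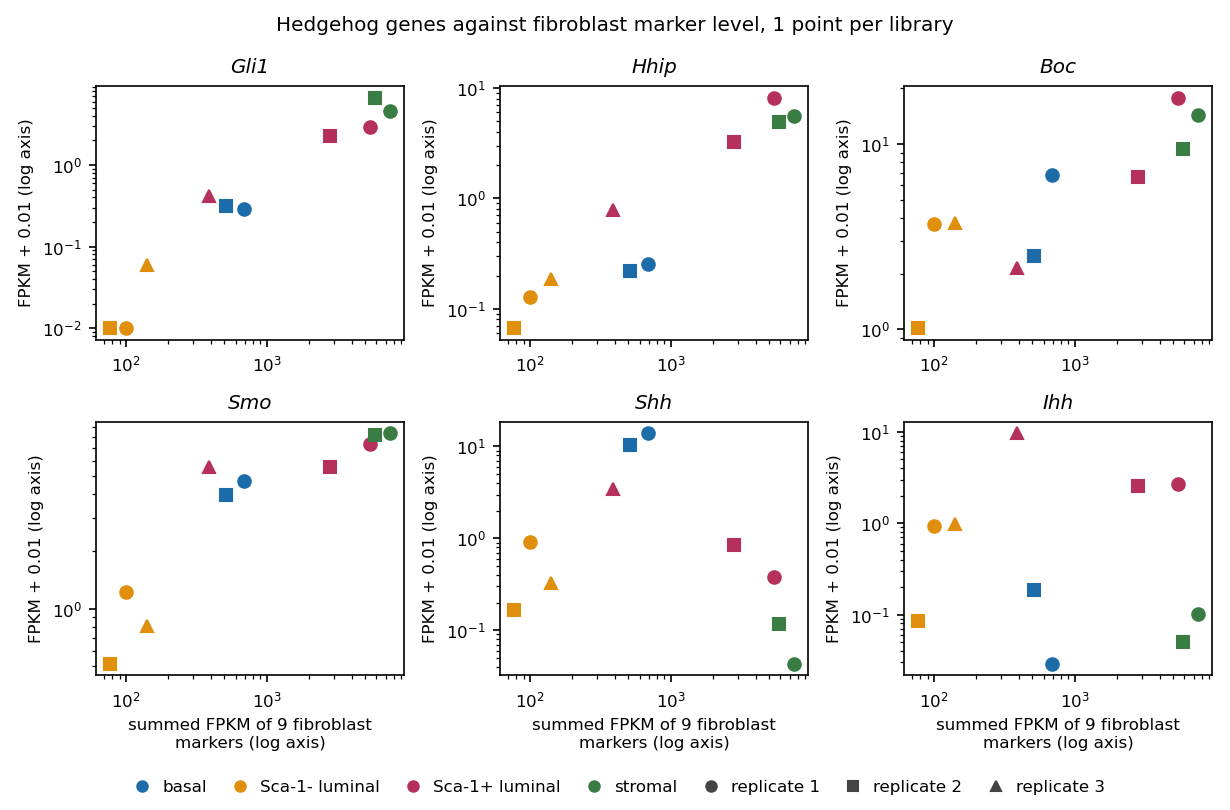
Level of 6 Hedgehog genes (vertical axes, FPKM + 0.01, log scale) against the summed FPKM of 9 fibroblast markers (horizontal axes, log scale). Each point is 1 of the 10 libraries, colour gives the gate and shape the replicate number, which is only the listed order. In the Sca-1+ luminal gate Gli1, Hhip and Boc are lowest in library 3, where the markers sum to 391.4, whereas Shh and Ihh are highest there, at 3.43 and 9.64 FPKM. Dcn, 1 of the 9 markers, gives most of each sum.

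Counted by comparison, 8 of the 9 members passed the filter of 1 FPKM in at least 2 libraries and were tested among 12480 genes. A gene scarce in all but one gate passes such a filter through that gate, so the counts describe the members and are read against the share of all genes called. In stromal against Sca-1- luminal cells 5 of 8 were called, all higher in stroma (Ptch1, Smo, Gli1, Gli3 and Hhip); of all genes 52.6% were called, 25.2% higher in stroma and 27.4% higher in Sca-1- luminal cells. In Sca-1+ against Sca-1- luminal cells 5 of 8 were called, all higher in Sca-1+ cells (Ihh, Ptch1, Smo, Gli1 and Hhip), beside 35.2% of all genes, 21.8% in that direction and 13.3% in the other. With library 3 alone 2 of the 7 tested were called there, Shh and Smo, beside 16.4% of all genes, 10.3% higher in Sca-1+ and 6.11% in Sca-1- cells.

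In basal against Sca-1- luminal cells 3 of 8 were called, all higher in basal cells (Shh, Smo and Gli3), beside 46.2% of all genes, 20.2% in that direction and 26% in the other. In stromal against basal cells 3 of 8 were called, Gli1 and Hhip higher in stroma and Shh in basal cells, beside 22.7% of all genes, 13.5% higher in stroma and 9.16% in basal cells. In basal against Sca-1+ luminal cells 4 of 8 were called, Shh and Gli3 higher in basal and Ihh and Hhip in Sca-1+ cells, beside 19.8% of all genes, 4.4% higher in basal and 15.4% in Sca-1+ cells. With library 3 alone 2 of 7 were, Shh and Gli3, beside 15.9% of all genes, 4.58% higher in basal and 11.3% in Sca-1+ cells. In stromal against Sca-1+ luminal cells 2 of 8 were called, Gli1 higher in stroma and Ihh in Sca-1+ cells, beside 13.5% of all genes, 1.79% higher in stroma and 11.7% in Sca-1+ cells. The fit with library 3 alone called 4 of 7, with Gli1, Hhip and Boc higher in stroma and Shh in Sca-1+ cells, beside 31% of all genes, 14.7% higher in stroma and 16.3% in Sca-1+ cells. The comparisons share libraries and are not independent of each other.

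The median log2 change of the 8 members was 1.73 in stromal against Sca-1- luminal cells, beside -0.06 over all genes tested. It was 1.24 in Sca-1+ against Sca-1- luminal cells, beside 0.19, and 0.83 in stromal against basal cells, beside 0.02. In the other comparisons it was 0.64 in basal against Sca-1- luminal cells, beside -0.05, 0.64 in stromal against Sca-1+ luminal cells, beside -0.16, and -0.49 in basal against Sca-1+ luminal cells, beside -0.29. With Sca-1+ luminal library 3 alone the median of the 7 members tested was 0.47 in Sca-1+ against Sca-1- luminal cells, 1.46 in stromal against Sca-1+ luminal cells and 0.29 in basal against Sca-1+ luminal cells, the last of opposite sign. Scaling moved the comparisons with the Sca-1+ gate: quantile normalization shifted the median of all genes by 0.37 in basal against Sca-1+ luminal cells, by 0.22 in stromal against Sca-1+ luminal cells and by -0.26 in Sca-1+ against Sca-1- luminal cells. The share of calls that were higher in the first-named gate went with it from 22.2% to 53.1%, from 13.3% to 37.7% and from 62.1% to 40.4%. Of the members, Ptch1 and Smo changed sign under it in basal against Sca-1+ luminal cells, to 0.39 and 0.02, neither of them called.

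A further 51 genes of the pathway, listed by role, were all found in the tables, and 41 passed the filter. In stromal against Sca-1- luminal cells 20 of 41 were higher in stroma, beside 25.2% of all genes, and 8 in Sca-1- luminal cells, beside 27.4%. In stromal against basal cells 13 were higher in stroma and 4 in basal cells, beside 13.5% and 9.16% of all genes. In Sca-1+ against Sca-1- luminal cells 16 were higher in Sca-1+ and 0 in Sca-1- cells by limma (4 in Sca-1- cells at an unadjusted p under 0.05), beside 21.8% and 13.3%. Library 3 alone gave 5 and 1 of 39, beside 10.3% and 6.11%. In stromal against Sca-1+ luminal cells 0 were higher in stroma by limma (4 at an unadjusted p under 0.05) and 5 in Sca-1+ cells, beside 1.79% and 11.7%. Library 3 alone gave 15 and 6 of 39, beside 14.7% and 16.3%. The split in basal against Sca-1- luminal cells was 9 and 9, beside 20.2% and 26%, shares near those of all genes. In basal against Sca-1+ luminal cells it was 1 and 9, beside 4.4% and 15.4%, and with library 3 alone 2 and 6 of 39, beside 4.58% and 11.3%.

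Among genes for making and releasing ligand, 3 of 6 were tested. Hhat, which adds the fatty acid to the ligand, was measured at 4.40 and 6.27 FPKM in stroma, against 0.149, 0 and 0.678 FPKM in the Sca-1- luminal gate (2.33, adjusted p = 0.003777 by limma). Disp1, which releases ligand from the cell, had 1.60 and 1.92 FPKM in stroma and 0.389, 0.080 and 0.654 FPKM in the Sca-1- luminal gate (1.02, adjusted p = 0.01397 by limma; lost without either stromal library, at 0.05626 and 0.08293). Both were thus called higher in stroma, where Shh and Ihh rested on a few estimated fragments per library, than in Sca-1- luminal cells. Against basal cells, 3 of the 3 tested genes were called higher in stroma, beside 13.5% of all genes. Against the Sca-1+ luminal gate, 0 of the 3 were called in either direction, beside 13.5% of all genes. The third ligand, Dhh, did not exceed 0.542 FPKM in any library and was not tested.

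Among receptors and co-receptors, 4 of 6 were tested. Gas1, a co-receptor like Boc, had 25.1 and 11.3 FPKM in stroma and, in the Sca-1+ luminal gate, 33.1, 11.7 and 2.02 FPKM, but no more than 2.26 FPKM in basal and Sca-1- luminal cells. Its excess of stroma over Sca-1- luminal cells was 3.40 (adjusted p = 0.008648 by limma) and was lost without stromal library 1 (adjusted p = 0.08073 by limma). Gpc3, a cell-surface glypican that competes with Ptch1 for ligand, had 163.7 and 72.9 FPKM in stroma and 1.49, 0.487 and 1.99 FPKM in the Sca-1- luminal gate (5.63, adjusted p = 0.001971 by limma). Cdon, the relative of Boc, stayed between 0.142 and 1.56 FPKM and was not called (0.54, adjusted p = 0.1881 by limma).

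Of the signal transducers and Gli regulators, 16 of 18 were tested, and in stromal against Sca-1- luminal cells 6 were higher and 4 lower in stroma, beside 25.2% and 27.4% of all genes, so that the lower ones were about as frequent as among all genes. Evc2 and Evc, partners of Smo at the cilium, were higher in stroma by 2.32 (adjusted p = 0.002743 by limma) and 1.62 (adjusted p = 0.004722 by limma, and 0.05291 without stromal library 1). Sufu, which holds the Gli factors back, was higher by 1.15 (adjusted p = 0.02762 by limma), with 4.14 and 5.00 FPKM in stroma, against 1.49, 0.652 and 2.83 FPKM in the Sca-1- luminal gate. Its call was lost under 5 alternatives, which left out either stromal library or Sca-1- luminal library 1 or 2, or used no filter. Ulk3, a kinase acting on Gli proteins, went the other way (-1.64, adjusted p = 0.0004839 by limma), as did the arrestin Arrb2 (-1.27, adjusted p = 0.005019 by limma).

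Of the genes for the primary cilium, the organelle in which Smo acts, 8 of 9 were tested, and 1 was called higher in stroma and 4 in Sca-1- luminal cells, beside 25.2% and 27.4% of all genes. Arl13b was the 1 higher in stroma (1.67, adjusted p = 0.002029 by limma), and Ift172 was among the 4 lower (-1.73, adjusted p = 0.01816 by limma; lost without either stromal library or Sca-1- luminal library 2, at 0.06421, 0.0971 and 0.05463). Fuz and Inpp5e were listed at 0 in all 4 basal and stromal libraries and at 4.15 to 9.83 and 2.35 to 4.81 FPKM in the 6 luminal libraries. Exact zeros in these tables can be estimates that were not made, so no fold is given for them. Both are among the 4 called higher in Sca-1- luminal than in stromal cells, and without them 2 of 6 were. They are likewise among the 9 pathway genes called higher in Sca-1- luminal than in basal cells, the 5 higher in Sca-1+ luminal than in stromal cells and the 9 higher in Sca-1+ luminal than in basal cells, which were 7, 3 and 7 without them.

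Genes known as mesenchymal targets of Hedgehog signalling were mostly higher in stroma than in Sca-1- luminal and basal cells, and none was called higher in stroma than in the Sca-1+ luminal gate with all libraries. Of 12 listed, 10 were tested: 9 were higher in stroma than in Sca-1- luminal cells, beside 25.2% of all genes, and 7 were higher in stroma than in basal cells, beside 13.5%, with 1, Ccnd1, higher in basal cells. Their median log2 change was 3.24 in stromal against Sca-1- luminal cells, beside -0.06 over all genes. Igfbp6, a binding protein for insulin-like growth factors, was measured at 374.8 and 405.5 FPKM in stroma, against 2.99, 1.61 and 4.06 FPKM in the Sca-1- luminal gate (6.70, adjusted p = 0.0003631 by limma). The forkhead factor Foxf1 had 22.7 and 40.6 FPKM in stroma and 0.575, 0.132 and 1.14 FPKM in the Sca-1- luminal gate (4.33, adjusted p = 0.001942 by limma). The growth factor Bmp4 (4.07, adjusted p = 0.001671 by limma) and the steroid enzyme Hsd11b1 (5.54, adjusted p = 0.00154 by limma) were higher in stroma as well.

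In the Sca-1+ luminal gate the same targets varied by library. Igfbp6 was measured at 389.0, 257.3 and 26.7 FPKM, Foxf1 at 23.9, 28.9 and 2.28 FPKM, and Hsd11b1 at 96.2, 67.4 and 4.54 FPKM. All 3 were lowest in library 3, where the fibroblast markers summed to 391.4. The cell-cycle gene Ccnd1 went the other way, at 20.8, 50.2 and 63.6 FPKM, and the survival gene Bcl2 was measured at 4.76, 5.74 and 5.58 FPKM; the other tested targets were lowest in library 3. With all 3 libraries, 10 of 10 were called higher in the Sca-1+ gate than in the Sca-1- gate, beside 21.8% of all genes. With library 3 alone, 5 of 10 were, beside 10.3%. In stromal against Sca-1+ luminal cells 0 of 10 were higher in stroma by limma with all libraries (1, at an unadjusted p under 0.05) and 1 in Sca-1+ cells, and with library 3 alone 7 were higher in stroma, beside 14.7% of all genes, and 1 in Sca-1+ cells. Many of these targets are expressed by fibroblasts in general, and the part of the fibroblast markers in these counts was not tested.

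**Figure D4:**
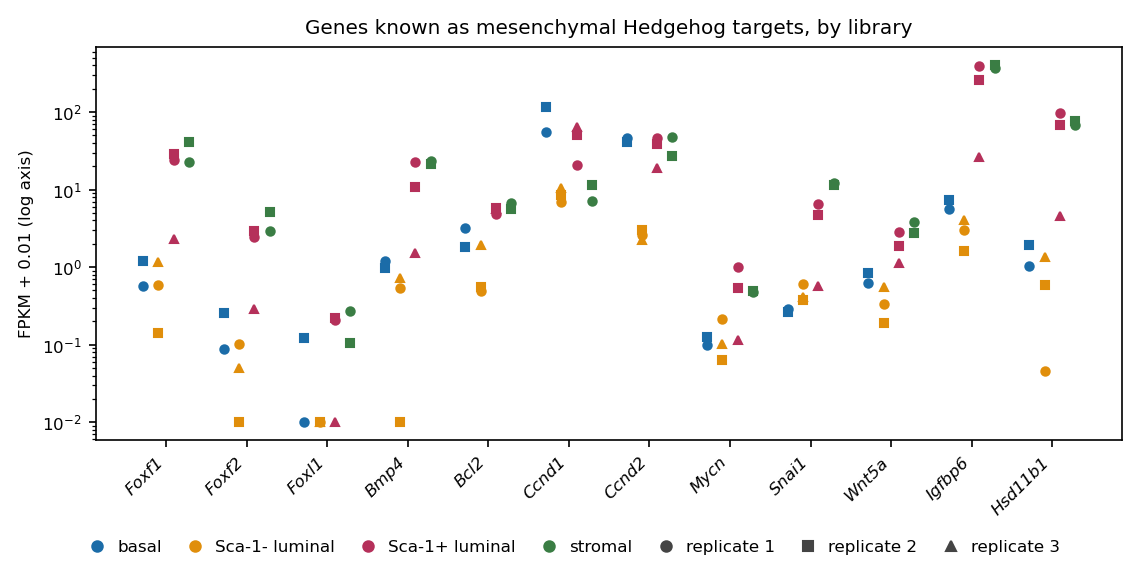
FPKM + 0.01 (vertical axis, log scale) of 12 genes known as mesenchymal Hedgehog targets in the 10 libraries. Colour gives the sorted gate and shape the replicate number, which is only the listed order within a gate. Igfbp6 reaches 374.8 and 405.5 FPKM in stroma and 26.7 to 389.0 FPKM in the Sca-1+ luminal gate, whose library 3 is its lowest, and Ccnd1 is higher in both basal libraries than in stroma.

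For each tested member, the 3 genes with the most similar pattern were taken by Pearson's r of log2(FPKM + 1) over the 10 libraries, as a description of libraries that share their gates. For Shh they were Plxnb1 (0.984), Lama3 (0.975) and Tnfrsf18 (0.973); Lama3, a laminin chain of the epithelial basement membrane, was measured at 68.2 and 50.3 FPKM in basal cells and at no more than 5.47 FPKM elsewhere. For Ihh they were Aspa (0.982), Sult1c2 (0.981) and Tspan33 (0.978), and Aspa reached 38.0 FPKM in Sca-1+ luminal library 3. For Gli1 they were Cnrip1, Mmp19 and Adamts7 (all 0.997). For Hhip they were Mrc2 (0.9965), Cilp (0.9955) and Thbs2 (0.9948), with Sca-1+ luminal library 1 highest, as for Hhip. For Gli3 they were Slc16a9 (0.977), Dgkd (0.976) and Spock1 (0.975), high in both basal libraries. The lists for Ptch1 (Usp11, Phc1 and Isyna1), Smo (Sned1, Rab21 and Grasp) and Boc (Zhx3, Amigo2 and Rab43) had r of 0.965 to 0.988. No gene appeared in the lists of 2 members.

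The RefSeq promoter table (GRCm38.p6, 250 bases before to 50 after a start) held 6 of the 9 members, all but Shh, Gli1 and Boc. The Gli motif GACCACCCA, searched on both strands, was in 83 of 32851 promoters of that length (0.253%) and in 0 of the 6, which says only that these letters are not in those windows.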

How the data were processed

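RNA of 10 sorted libraries was made into cDNA with random and poly(dT) priming and sequenced on an Illumina instrument, per the labels' protocols; whether strand was kept is not stated there. Per the submitters' processing notes, bcl2fastq 1.8.3, TopHat and Cufflinks were used with build mm10; for the last 2 the version is not given in the sources used here. The authors deposited FPKM for each of 63241 transcripts per library, per the file headers.

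Transcripts were matched by locus to GENCODE M21 and RefSeq GRCm38.p6 genes (the mm10 assembly); 53851 (85.2%) were named. The rule that 1 matching end may lie within 10 nt, and the preference for a single protein-coding gene, were added after a marker gene was seen at 0; 1 transcript of Ihh, which carried most of its signal, was named by the first of them, and by overlap with the Ihh locus without it. Transcripts under 300 nt (8006) and 7 genes with failed estimates were left out, and FPKM was summed per gene. Depth was estimated from steps of 1 fragment in the low values of 9127 isolated transcripts (85.4% to 90.2% within 0.05 of a whole number), searched between 17 and 33 M fragments; the range was set after basal library 1 gave a depth 2 times as high, at a step of 0.5 fragments. Counts were not rebuilt for the test, and fragment numbers are estimates.

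limma 3.58.1 (R 4.3.3) was fitted to log2(FPKM + 1), with a mean per gate, 6 residual degrees of freedom and trended eBayes, to 12480 genes that reached 1 FPKM in 2 or more libraries, with Benjamini-Hochberg adjustment in each of 6 comparisons and calls at 0.05. It was tested on simulated data. Log2 changes on this scale understate changes of scarce genes. All 9 members were named; of the other pathway genes, up to 4 per role with the largest called change of stromal against Sca-1- luminal cells, plus Dhh, Cdon, Gas1, Sufu and 1 gene that is not reported here; other genes were named after their values were seen. Members and lists were chosen with earlier results of these data known. Libraries within a gate were numbered in listed order. Alternatives were other pseudocounts, filters, scalings, row matches, variance models and sets of libraries. Tables were made with Python 3.11.15 and pandas 2.3.3.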

Additional observations from a re-analysis of the deposited data

How the results depend on the processing

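Of 978 values of members' log2 changes under alternatives, 882 kept direction and side of the threshold, 60 lost and 23 gained a call, and 13 changed sign; 11 of 22 calls held in every alternative that tested them. Counts of called members moved by over 1.5 times as follows. Stromal against Sca-1+ luminal cells (2) gave 1 with a pseudocount of 0.1 or 0.5, with short transcripts kept and without the trend, 0 with only the 2 gates fitted, and 4 with Sca-1+ luminal library 3 alone. Basal against Sca-1+ luminal cells (4) gave 1 with only the 2 gates fitted and 2 with library 3 alone. Sca-1+ against Sca-1- luminal cells (5) gave 2 with library 3 alone. Keeping only transcripts matched at both ends left 4 members to test, by construction, and gave 2 in stromal against Sca-1- luminal cells (5), 0 in stromal and 1 in basal against Sca-1+ luminal cells, and 2 in Sca-1+ against Sca-1- luminal cells. Leaving out 1 library at a time gave 0 to 4 in stromal and 0 to 5 in basal against Sca-1+ luminal cells and 3 to 7 in Sca-1+ against Sca-1- luminal cells. The lowest of these came without either stromal library, without basal library 1 and without Sca-1+ luminal library 2, and the cause was not tested.

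None of the sign changes was of a called value. In basal against Sca-1+ luminal cells Ptch1 turned to 0.18 with median-of-ratios scaling, 0.39 with quantile normalization and 0.29 with library 3 alone, Smo to 0.0247 with quantile normalization, and Boc to 0.74 with library 3 alone. Boc turned to -0.18 in Sca-1+ against Sca-1- luminal cells with library 3 alone. Leaving out 1 library at a time, Ptch1 ranged from -0.3386 to 0.1613 and Boc from -1.2043 to 0.0927 in basal against Sca-1+ luminal cells, and Boc from -0.0332 to 1.1371 in basal against Sca-1- luminal cells. Ihh ranged from -0.1459 to 0.0638 in stromal against basal cells and Hhip from -0.0083 to 1.1743 in stromal against Sca-1+ luminal cells, where the negative value came without Sca-1+ luminal library 3.

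Values of a few fragments, such as Shh and Ihh in stroma, Gli2 in most gates and Gli1 in Sca-1- luminal cells, cannot show differences among those gates. Fewer than 4 libraries per gate limit every test. No paired analysis was made, because the labels carry no replicate numbers, and a shift shared by libraries listed together was not tested.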

Other observations

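The zeros of Fuz and Inpp5e were part of a small set in the tables. In all, 12 of 24531 genes were listed at 0 in each of the 4 basal and stromal libraries and at 1 FPKM or more in each of the 6 luminal libraries, and 4 genes showed the opposite pattern. This set was counted after the values of Fuz and Inpp5e were seen.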
